A study of Mus musculus with 26 samples.

Results

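The data described here are 6 RNA libraries of mouse mammary fat pad fibroblasts kept in 4T1 CM, which is culture medium that had been conditioned by the mammary carcinoma line 4T1 of the mouse. In 4 of them the fibroblasts had been co-cultured with bone-marrow-derived macrophages and in 2 they had been cultured alone (mono-culture). They were chosen by their labels, are 6 of 12 fibroblast libraries and of 26 libraries in the series, and are described over 12401 tested genes of 12948 listed. The study asked, by its title, how cell types of the tumour environment act on each other, and the comparison asks what macrophages change in fibroblasts that already receive tumour-cell factors. The 3' ends of messenger RNA were sequenced, so a value counts transcripts and does not grow with transcript length.

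In 4T1 CM there were 4 co-cultures and 2 mono-cultures. In DMEM with serum and without tumour-cell medium there were 3 co-cultures and 3 mono-cultures, used here only to set the effect of macrophages in another medium beside that in 4T1 CM. All fibroblasts came from BALB/c mice aged 8 weeks, with 2 females pooled per replicate, and were expanded on collagen I and depleted of CD45+ and EpCAM+ cells before use. Co-cultures ran for 7 days and were sorted for live cells negative for F4/80 and CD11b, the products of Adgre1 and Itgam. The harvest time of the mono-cultures is unknown from the labels, so macrophages and time cannot be told apart. The label of fibroblasts fitted their transcripts: Pdgfra had 393, 376, 538 and 480 normalized reads in co-cultures 1 to 4 and 547 and 451 in mono-cultures 1 and 2. A normalized read is a read count divided by the authors' size factor for the library.

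Fibroblasts make and remodel the collagen matrix, and those near tumours respond to factors of carcinoma cells and macrophages. Macrophages depend on the cytokine CSF1, which fibroblasts secrete, and in turn release growth factors, proteases and inflammatory mediators. A mammary fat pad lies on skeletal muscle and is crossed by nerves, so cultures grown from it can also hold muscle precursor cells and Schwann-lineage glia. Muscle precursors leave the cell cycle when growth factors are low, switch on the transcription factor myogenin (Myog), fuse through the membrane protein myomaker (Mymk) and assemble contractile filaments.

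Depth was 3710780 to 4933176 reads in the co-cultures in 4T1 CM, against 2020605 reads in mono-culture 1 and 4846513 reads in mono-culture 2. Mono-culture 1 stood apart: 48 genes were at least 4 times higher in it than in each of the other 5 libraries, against 0 to 15 genes for any of those. The co-cultures resembled each other in pairs: the correlation of log2 values across 12401 genes was 0.976 between replicates 1 and 2 and 0.971 between replicates 3 and 4, but 0.951 to 0.959 between the pairs. Each co-culture was also closer to mono-culture 2 (0.962 to 0.974) than to either co-culture of the other pair.

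In 4T1 CM, 3 genes rose in co-culture and 0 fell, which is 0.0242% of the genes tested (limma, Benjamini-Hochberg adjusted p under 0.05). All 3 are genes of skeletal muscle: Mybph, a myosin-binding protein, Myl1, a light chain of fast skeletal myosin, and Mymk, which drives myoblast fusion. At an unadjusted p under 0.05 there were 630 genes higher (5.08%) and 525 lower (4.23%), which is 9.31% in all. The edgeR quasi-likelihood test on the reads behind the values called 0 genes, and DESeq2 called 14 higher (0.131%) and 13 lower (0.121%) of 10716 genes, 0.252% in all. The count of limma calls depended on single libraries. It was 0 without co-culture 2, 3 or 4 or without mono-culture 1, it was 3 without co-culture 1, 2 of them shared with the full set, and it was 171 higher and 126 lower without mono-culture 2, when mono-culture 1 alone stood for its group.

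Mybph lies on chromosome 1 from 134193448 to 134201232 (plus strand), Myl1 on chromosome 1 from 66924295 to 66945404 (minus strand), and Mymk on chromosome 2 from 27061636 to 27072179 (minus strand; GENCODE vM21 on GRCm38). Their regulator Myog lies on chromosome 1 from 134289989 to 134292548 (plus strand). Myogenin and its relative MyoD bind the E-box, CANNTG, and many of their sites read CAGCTG. The promoters of Mybph, Myl1 and Myog are shown because these genes were higher together in co-culture. Each runs from 250 bases before to 50 bases after the RefSeq start (GRCm38.p6; Mybph chr1:134193198-134193497 plus, Myl1 chr1:66945007-66945306 minus, Myog chr1:134289754-134290053 plus), written 5′ to 3′ with each CANNTG in capitals.
Mybph: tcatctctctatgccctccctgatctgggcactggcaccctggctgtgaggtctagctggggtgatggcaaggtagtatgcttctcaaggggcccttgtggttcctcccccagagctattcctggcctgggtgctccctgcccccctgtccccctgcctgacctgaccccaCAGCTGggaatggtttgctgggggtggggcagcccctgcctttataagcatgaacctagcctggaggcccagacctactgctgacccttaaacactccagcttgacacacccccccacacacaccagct
Myl1: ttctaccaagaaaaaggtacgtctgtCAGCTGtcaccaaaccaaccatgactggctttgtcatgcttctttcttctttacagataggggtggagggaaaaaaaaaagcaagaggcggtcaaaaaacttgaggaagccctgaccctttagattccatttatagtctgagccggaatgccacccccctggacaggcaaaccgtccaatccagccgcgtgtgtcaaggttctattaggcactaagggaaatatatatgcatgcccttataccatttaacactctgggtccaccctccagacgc
Myog: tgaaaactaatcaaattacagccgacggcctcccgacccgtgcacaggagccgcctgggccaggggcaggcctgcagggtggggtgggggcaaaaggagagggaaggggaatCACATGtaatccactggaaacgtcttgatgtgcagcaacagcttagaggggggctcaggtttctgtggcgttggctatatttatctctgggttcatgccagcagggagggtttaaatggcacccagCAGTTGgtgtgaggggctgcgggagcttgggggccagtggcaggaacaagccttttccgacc
Mybph and Myl1 have 1 E-box each, both CAGCTG, at positions -79 and -224 before the RefSeq start. The Myl1 window lies inside the gene as placed by GENCODE, whose minus-strand start is at 66945404. Its -224 therefore counts from the RefSeq start only. Myog has 2, CACATG at -138 and CAGTTG at -12. The motif reads the same on both strands apart from its middle bases, and CAGCTG is 1 form of it. Of the 32851 promoters in the RefSeq table, 72.3% hold CANNTG and 16.3% hold CAGCTG. Of the 17 promoters found for 15 genes of the muscle list, 17 hold CANNTG and 8 hold CAGCTG (47.1%). These are matches of letters, and binding was not measured here.

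Mybph had 11.5, 32.4, 35.6 and 34.2 normalized reads in co-cultures 1 to 4, against 0 and 0 in the mono-cultures. All 4 co-cultures lay above the mono-cultures, with replicate 1 the lowest. The log2 change was 4.76 ± 0.60 (SE; limma adjusted p = 0.0230). Against a floor of 3 reads over both mono-cultures, the mean of 28.4 ± 11.4 (SD, n = 4) was at least 16.3-fold higher. The floor covers counting error only, and the fitted log2 value depends on the pseudocount of 1. The adjusted p ranged from 0.00248 to 0.688 over the alternative settings, and the gene was above 0 in all of them.

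Myl1 had 22.97, 40.7, 103 and 74.1 normalized reads in co-cultures 1 to 4, against 1.97 and 0.825 in mono-cultures 1 and 2. Every co-culture lay far above both mono-cultures, and replicate 1 was again the lowest. Its log2 change was 4.51 ± 0.67 (limma adjusted p = 0.0486). Mymk, named after its values were seen because its mean fell under the limit of 20 used for naming, had 12.5, 14.9, 28.7 and 20.8 normalized reads in co-cultures against 0 and 0 in mono-cultures. The mean of 19.2 ± 7.19 (SD, n = 4) was at least 11.03-fold higher than the floor, with a log2 change of 4.27 ± 0.64 (limma adjusted p = 0.0486).

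Other genes of the muscle programme also separated the groups without passing the limma test. Myog, the transcription factor of terminal muscle differentiation, had 4.18, 10.8, 6.95 and 11.7 normalized reads in co-cultures, against 0 and 0 in mono-cultures, at least 4.81-fold above the floor (limma adjusted p = 0.119). Acta1, skeletal alpha-actin, had 47.0, 188, 236 and 157 in co-cultures against 11.8 and 12.4 in mono-cultures (limma log2 change 3.37 ± 0.65, adjusted p = 0.157). DESeq2 called it (adjusted p = 0.0178), unlike Myog and Actc1. Actc1, the alpha-actin of heart and developing skeletal muscle, had 12.5, 13.3, 30.4 and 30.0 in co-cultures and 0 and 0.825 in mono-cultures (limma adjusted p = 0.130). In each of these genes the groups did not overlap.

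Over the muscle list, 19 of 21 genes were tested, and 2 of them passed with limma and 3 with DESeq2 (Mymk is not on the list). Of the 19, 15 were higher in every co-culture than in both mono-cultures and 0 were lower, where 7.86% and 7.18% of all genes tested separated in these directions. The median log2 change was 2.76, against 0.00 over all genes tested, and 2.46 with the 5 genes at 0 in both mono-cultures set to their floor. The list was chosen with earlier results of these data known and holds the called Mybph and Myl1. These values therefore describe the list and are not independent support. The 15 include embryonic and perinatal myosins (Myh3, Myh8), fast and slow troponins (Tnni1, Tnni2, Tnnc2), titin (Ttn) and desmin (Des), the intermediate filament of muscle. These and the 4 whose groups overlapped, Myod1, Tnnc1, Tnnt1 and Tnnt3, are named after their values were seen. Tnnt1 had 62.6, 36.5, 35.6 and 49.98 normalized reads in co-cultures against 49.4 and 41.2 in mono-cultures. The count of 15 was 15 or 16 without any single library and with only co-cultures 1 and 2 or only 3 and 4, while over all genes tested the same count was 975 with all libraries and 1327 to 3080 in those subsets.

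In summed level over the muscle list, the co-cultures in 4T1 CM did not reach the fibroblast cultures in DMEM, though single genes overlapped. Acta1 had 236 normalized reads in co-culture 3 in 4T1 CM, against 202 in mono-culture 1 in DMEM. Actc1 had 30.4 and 26.6 in the same libraries. Myl1 had 193, 352 and 111 normalized reads in co-cultures in DMEM and 164, 719 and 135 in mono-cultures in DMEM. The summed level of the 19 muscle genes was 419 to 829 in co-cultures in 4T1 CM and 172 to 188 in mono-cultures in 4T1 CM. In DMEM it was 1402 to 2492 in co-cultures, and 1014, 5551 and 1202 in mono-cultures 1 to 3. Thus the mono-cultures in 4T1 CM were the low group, and in DMEM the ranges of co-culture and mono-culture overlapped. In DMEM the median change of the list was -0.26 and 0 of its genes were called. The difference of the co-culture effect between the media passed the test for Mybph (log2 difference 5.12 ± 0.83, limma adjusted p = 0.0301) and missed it for Myl1 (4.86 ± 0.92, limma adjusted p = 0.0622). In these bulk samples fewer muscle-lineage cells and less of their RNA per cell cannot be told apart.

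**Figure D1:**
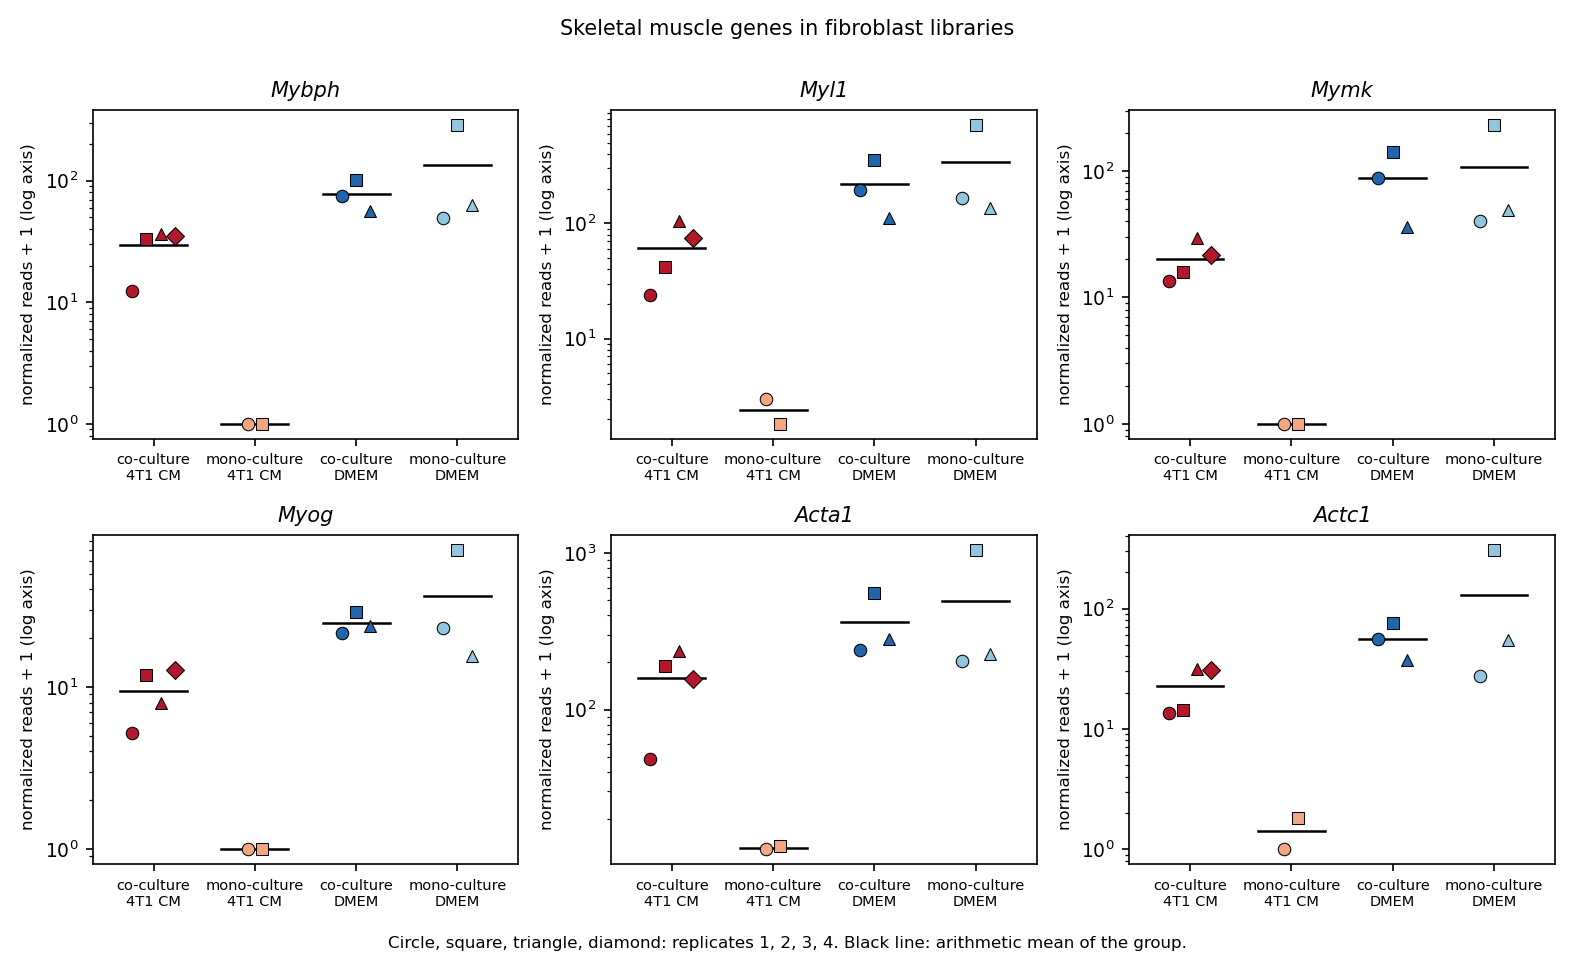
Normalized reads plus 1 (log axis) of 6 skeletal muscle genes in each fibroblast library, co-culture left of mono-culture in each medium, with 1 symbol per replicate and a line at the group mean. In 4T1 CM all 4 co-cultures lie above both mono-cultures for each gene. The libraries in DMEM lie mostly higher in both cultures, but overlap with the co-cultures in 4T1 CM for Acta1 and Actc1.

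Some genes outside muscle were also higher in every co-culture without passing the limma test. Npr3, the clearance receptor of natriuretic peptides, had 94.0, 104, 66.9 and 101 normalized reads in co-cultures and 23.7 and 28.9 in mono-cultures (limma log2 change 1.75 ± 0.35, adjusted p = 0.196). Fez1, which links cargo to kinesin, had 238, 347, 216 and 313 in co-cultures and 101 and 143 in mono-cultures (limma log2 change 1.18 ± 0.22, adjusted p = 0.130). Neither pair of groups overlapped, and DESeq2 called both, with adjusted p of 0.0125 for Npr3 and 0.00946 for Fez1.

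Eid1, an inhibitor of the EP300 acetyltransferase, had 760.0, 759.8, 655 and 586 normalized reads in co-cultures, against 128 and 425 in mono-cultures 1 and 2. Fgfr1, a receptor of fibroblast growth factors, had 312, 304, 360 and 315 in co-cultures and 132 and 269 in mono-cultures. For both the groups did not overlap, and mono-culture 1 was far below mono-culture 2. Their limma log2 changes were 1.55 ± 0.32 (adjusted p = 0.211) for Eid1 and 0.77 ± 0.24 (adjusted p = 0.413) for Fgfr1. DESeq2 called Eid1 (adjusted p = 0.0273) and not Fgfr1. Without mono-culture 1 the log2 changes were 0.69 for Eid1 and 0.26 for Fgfr1, and without mono-culture 2 they were 2.41 and 1.28.

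Among genes lower in co-culture, Draxin, a secreted guidance protein and Wnt antagonist, had 43.8, 23.3, 60.8 and 39.2 normalized reads in co-cultures, against 182 and 163 in mono-cultures. Pcsk5, a proprotein convertase that processes growth factors and matrix proteins, had 88.7, 54.8, 83.4 and 60.0 in co-cultures and 267 and 199 in mono-cultures. Neither pair of groups overlapped. Their log2 changes of -2.09 ± 0.38 and -1.70 ± 0.32 missed the limma threshold (adjusted p = 0.130 for both), while DESeq2 called them with adjusted p of 0.000357 for Draxin and 0.000825 for Pcsk5. Tnfrsf21, a death receptor, had 19.8, 22.4, 11.3 and 5.00 in co-cultures and 77.0 and 45.4 in mono-cultures (limma adjusted p = 0.282, DESeq2 adjusted p = 0.0472). Txnip, which inhibits thioredoxin and glucose uptake, had 1879, 1264, 1191 and 1586 in co-cultures and 2762 and 2137 in mono-cultures (limma adjusted p = 0.282), and was not called by DESeq2.

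Several collagen genes were lower in co-culture, while other matrix genes were mixed. Of 38 other matrix genes tested, 6 were lower and 2 higher without overlap, with a median log2 change of -0.06. Of 31 tested collagens and collagen-processing enzymes, 0 were called, 11 were lower in every co-culture than in both mono-cultures and 2 were higher, where 7.18% and 7.86% of all genes tested separated in these directions. The median log2 change was -0.22 in 4T1 CM and 0.33 in DMEM. Col1a1, a chain of type I collagen, had 6724, 5843, 6536 and 5880 normalized reads in co-cultures, against 9756 and 11568 in mono-cultures. The co-cultures lay within a narrow range below both mono-cultures, with a log2 change of -0.77 ± 0.19 (limma adjusted p = 0.282; DESeq2 adjusted p = 0.0182). Its partner chain Col1a2 overlapped, with 29372 to 40230 in co-cultures and 32364 and 49035 in mono-cultures, and is named after its values were seen.

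Nid2, a basement membrane linker of laminin and collagen IV, had 934, 663, 913 and 476 normalized reads in co-cultures, against 2138 and 1745 in mono-cultures (limma log2 change -1.42 ± 0.27, adjusted p = 0.130; DESeq2 adjusted p = 0.00223). In DMEM it had 327, 265 and 393 in co-cultures and 148, 244 and 173 in mono-cultures. Co-culture lay below mono-culture in 4T1 CM and above it in DMEM, and the difference between the media passed the test (log2 difference -2.23 ± 0.37, limma adjusted p = 0.0318). Its relative Nid1 was on the other side, with 745 to 1015 in co-cultures and 480 and 671 in mono-cultures.

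Decorin (Dcn), a small proteoglycan that binds collagen fibrils and was named after its values were seen, had 7613, 6744, 5989 and 6761 normalized reads in co-cultures, against 14690 and 10710 in mono-cultures (limma adjusted p = 0.311; DESeq2 adjusted p = 0.0499). Tenascin C (Tnc), a matrix protein of wounds and tumours, had 3967, 4162, 3149 and 2976 in co-cultures and 6450 and 4970 in mono-cultures (limma adjusted p = 0.413). Loxl2, which cross-links collagen, had 1380, 1029, 869 and 837 in co-cultures and 1682 and 1792 in mono-cultures (limma adjusted p = 0.424). None of these groups overlapped. Col12a1, a fibril-associated collagen, had 403, 247, 374 and 244 in co-cultures and 1104 and 475 in mono-cultures, and its log2 change of -1.23 ± 0.34 was -0.62 without mono-culture 1 and -1.83 without mono-culture 2.

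Col8a1, a short-chain network collagen, was 1 of the 2 collagen genes on the higher side, with 101, 92.2, 171 and 239 normalized reads in co-cultures, against 47.4 and 42.9 in mono-cultures. Its log2 change of 1.61 ± 0.36 missed the limma threshold (adjusted p = 0.260; DESeq2 adjusted p = 0.0178). In DMEM it was at 291 to 705 in co-cultures and 520 to 649 in mono-cultures, so both groups in 4T1 CM were below both in DMEM. Over the contractile and myofibroblast list of 21 tested genes, 5 were higher without overlap and 1 lower, against 7.86% and 7.18% of all genes tested, with a median log2 change of 0.34. Acta2, the marker of myofibroblasts, overlapped at 54.3, 48.2, 94.7 and 124 in co-cultures and 43.4 and 66.8 in mono-cultures.

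**Figure D2:**
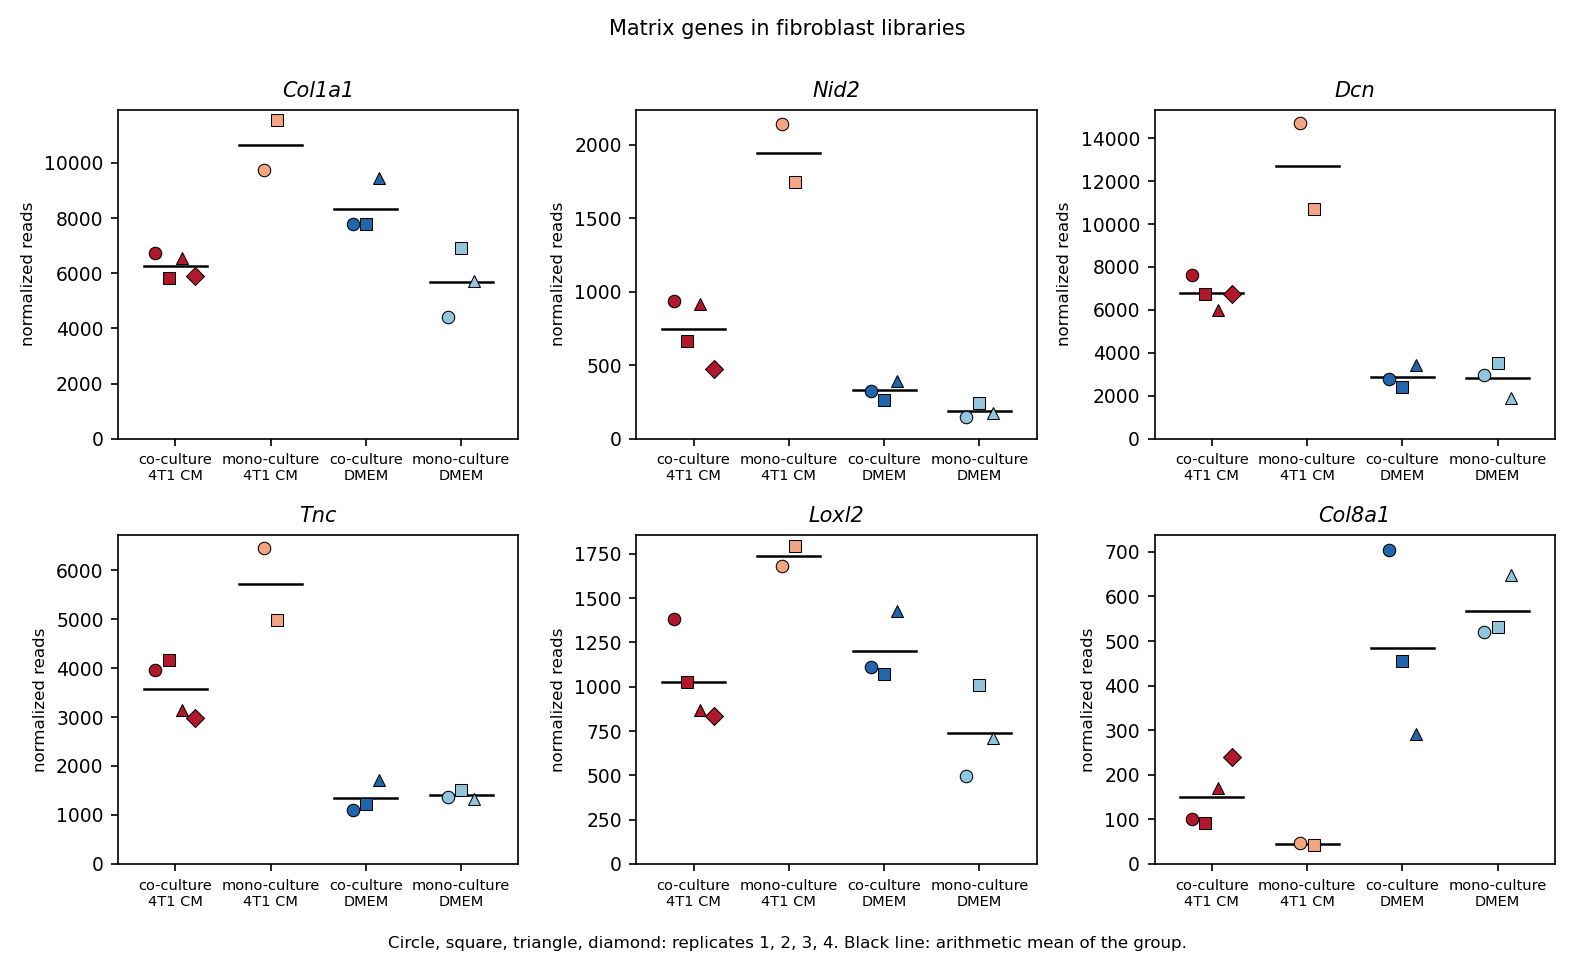
Normalized reads (linear axes from 0) of 6 matrix genes in each fibroblast library, co-culture left of mono-culture in each medium, with 1 symbol per replicate and a line at the group mean. In 4T1 CM the co-cultures lie below both mono-cultures for Col1a1, Nid2, Dcn, Tnc and Loxl2 and above them for Col8a1.

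None of the genes named by which fibroblasts and macrophages signal to each other was called in 4T1 CM by limma. Csf1, the macrophage growth factor, had 9297, 8605, 8093 and 8611 normalized reads in co-cultures, against 7504 and 5893 in mono-cultures, and Spp1, osteopontin, had 16617, 23023, 19798 and 24649 in co-cultures and 14992 and 10205 in mono-cultures. Neither passed the test (limma adjusted p = 0.559 and 0.565), although the groups did not overlap. Gas6, the ligand of the TAM receptors Axl and Mertk, overlapped at 300, 170, 671 and 981 in co-cultures and 223 and 250 in mono-cultures. The neutrophil chemokine Cxcl5 overlapped too, with 1418, 1912, 3960 and 2183 in co-cultures and 3092 and 4372 in mono-cultures.

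Lists of inflammation and antigen presentation had medians below 0 in 4T1 CM and above 0 in DMEM, with 0 members called in 4T1 CM. The median log2 change was -0.47 for 16 complement genes (0.68 in DMEM), -0.40 for 26 cytokines and chemokines (0.31 in DMEM), -0.37 for 15 genes of MHC class I presentation (0.38 in DMEM) and -0.35 for 26 NF-kB and acute-phase genes (0.32 in DMEM). Of the 16 complement genes 7 were partner-enriched (at least 4 times higher, as a share of reads, in macrophages without fibroblasts than in mono-cultured fibroblasts), as were 7 of the 26 cytokines, 10 of the 15 MHC class I genes and 1 of the 26 NF-kB genes. Macrophage markers had a median log2 change of 4.30 in DMEM and -0.57 in 4T1 CM, and their part in these list values was not tested. Lower without overlap were 3 of the 16 complement genes and 3 of the 26 cytokines. So were 2 of the 15 MHC class I genes and 3 of the 26 NF-kB genes. Each is a larger share than the 7.18% of all genes tested, but rests on few genes. Higher without overlap were 1, 2, 0 and 1 of these lists in turn, each a smaller share than 7.86%. Psmb9, a subunit of the immunoproteasome, had 31.3, 14.9, 35.6 and 39.2 normalized reads in co-cultures and 49.4 and 93.2 in mono-cultures (limma adjusted p = 0.446). Nfkbiz, a regulator of NF-kB targets, was among the few on the other side, with 168, 174, 118 and 137 in co-cultures and 59.2 and 101 in mono-cultures (limma adjusted p = 0.436).

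**Figure D3:**
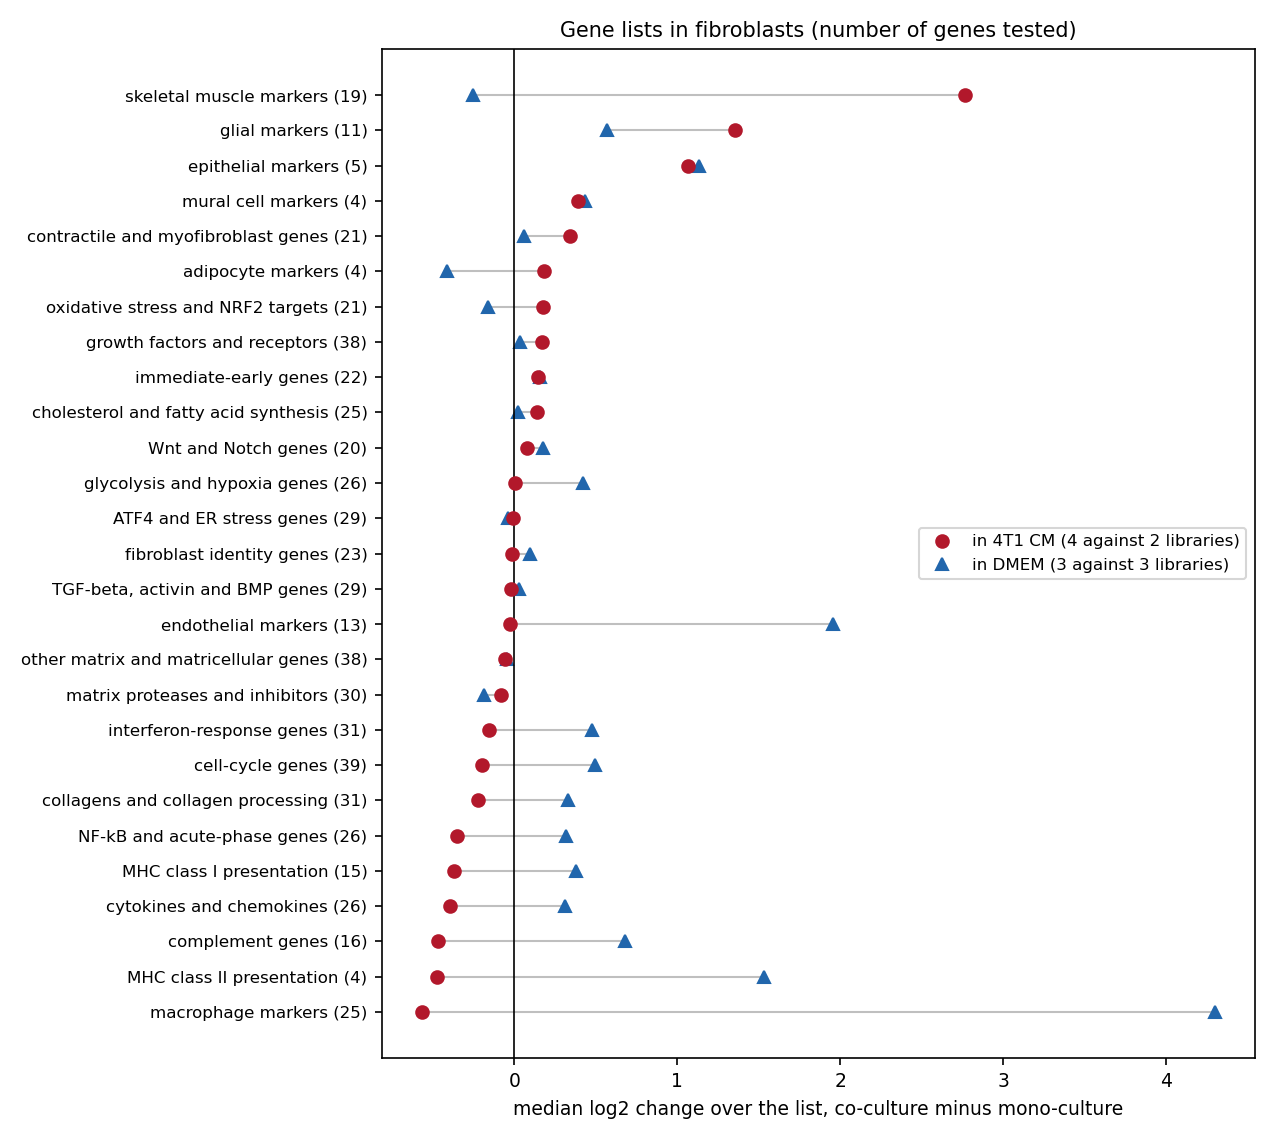
Median log2 change over each gene list, co-culture minus mono-culture, in 4T1 CM (circles, 4 against 2 libraries) and in DMEM (triangles, 3 against 3 libraries), with the number of genes tested in brackets. The muscle list is at 2.76 in 4T1 CM and -0.26 in DMEM, the macrophage list at -0.57 and 4.30, and most other lists lie close to 0.

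The effect of macrophages differed between the media for 18 genes (0.145% of those tested), 4 with a higher (0.0323%) and 14 with a lower (0.113%) effect in 4T1 CM. These counts were 0 and 11 with edgeR, 39 and 99 with DESeq2, 0 and 2 without mono-culture 1 in 4T1 CM, and 116 and 81 without mono-culture 2. Mmp9, a gelatinase, had 613, 807, 1471 and 778 normalized reads in co-cultures in 4T1 CM and 1303 and 1721 in mono-cultures in 4T1 CM. In DMEM it had 123, 130 and 110 in co-cultures and 11.8, 16.2 and 15.4 in mono-cultures. Co-culture was thus higher in DMEM and not in 4T1 CM, where both groups were above all libraries in DMEM. The log2 difference was -3.77 ± 0.37 (limma adjusted p = 0.00115). It was called under all 20 alternatives run, unlike those of the other genes named for this test.

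C3, the central complement component, had 382, 272, 627 and 405 normalized reads in co-cultures in 4T1 CM and 754 and 861 in mono-cultures in 4T1 CM, against 758, 339 and 197 in co-cultures in DMEM and 63.9, 65.0 and 43.9 in mono-cultures in DMEM (log2 difference -3.68 ± 0.56, limma adjusted p = 0.0283). Csf1r, the receptor of CSF1 and a macrophage gene, had 97.1, 103, 54.7 and 49.98 in co-cultures and 105 and 139 in mono-cultures in 4T1 CM, and 131, 154 and 258 in co-cultures and 17.9, 20.3 and 20.8 in mono-cultures in DMEM (log2 difference -3.81 ± 0.45, limma adjusted p = 0.00462). Gjb5, a connexin, and Slc15a3, an endosomal peptide transporter, had the same pattern, with log2 differences of -2.59 ± 0.39 and -4.23 ± 0.62 (limma adjusted p = 0.0283 for both). Of the 18 genes, Csf1r, Slc15a3, Syngr1, Trem2, Fcrls, Cybb, Hpse and Psmb8 are partner-enriched, against 662 of all 12401 genes tested.

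Hmox1, heme oxygenase 1, an antioxidant enzyme, was on the opposite side. It had 3213, 3438, 3650 and 4099 normalized reads in co-cultures and 3009 and 2158 in mono-cultures in 4T1 CM, and 889, 1143 and 873 in co-cultures and 2801, 1655 and 2130 in mono-cultures in DMEM. Co-culture was lower in DMEM, and in 4T1 CM the co-cultures lay just above the mono-cultures (log2 difference 1.65 ± 0.28, limma adjusted p = 0.0342). Tmem150a, a membrane protein, had the same pattern at 1.35 ± 0.23, and Syngr1, a synaptic vesicle protein, at 3.51 ± 0.61 (limma adjusted p = 0.0342 for both). Syngr1 is partner-enriched and was low in 4T1 CM, with 7.31, 11.6, 4.34 and 7.50 in co-cultures and 0 and 0.825 in mono-cultures. In DMEM it had 18.8, 16.6 and 31.4 in co-cultures and 58.8, 34.5 and 33.1 in mono-cultures.

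In DMEM 106 genes were called higher in co-culture (0.855%) and 18 lower (0.145%), 1.00% in all. Of the 106, 68 were partner-enriched, against 662 of all 12401 genes tested. The 106 had a median log2 change of 2.98 in DMEM and -0.30 in 4T1 CM, where 73 of them lay below 0. Across all 12401 genes, the changes in the 2 media were correlated at -0.102 (Pearson) and -0.0936 (Spearman), a description over genes that are not independent. The comparisons share no library.

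**Figure D4:**
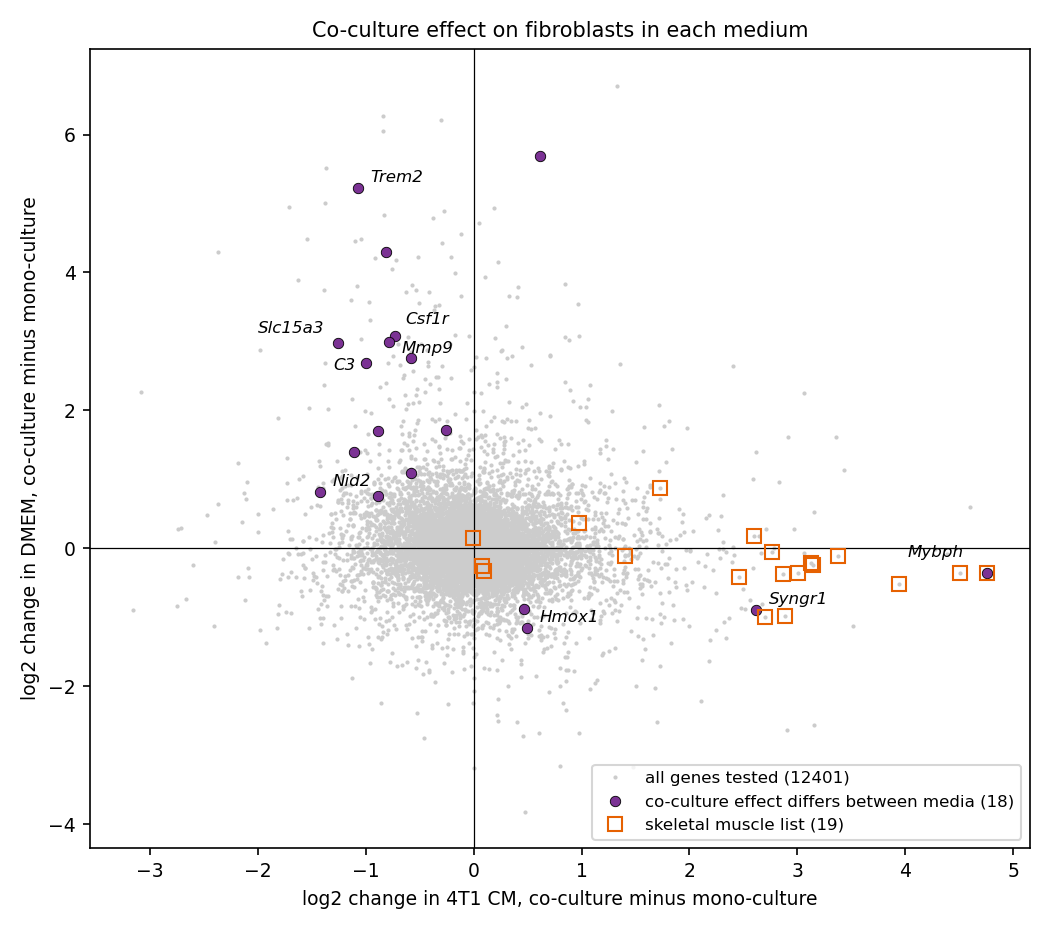
Log2 change of each gene, co-culture minus mono-culture, in 4T1 CM (horizontal) and in DMEM (vertical), with the 18 genes whose effect differed between the media filled and the 19 muscle genes as open squares. The muscle genes spread to the right near 0 in DMEM, and genes such as Mmp9, Csf1r and C3 lie above 0 in DMEM and below 0 in 4T1 CM.

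Macrophage transcripts in the sorted fibroblasts did not separate the groups in 4T1 CM. The macrophage share, the median over 27 marker genes of the level in percent of that in co-cultured macrophages in 4T1 CM, was 0.275%, 0.465%, 0.0115% and 0.0136% in co-cultures 1 to 4, against 0.182% and 0.142% in mono-cultures, which had received no macrophages. It was 1.09% to 2.56% in co-cultures in DMEM and 0.00855% to 0.0333% in mono-cultures in DMEM. The summed level of the 27 markers was 240 to 1660 in co-cultures and 760 and 800 in mono-cultures in 4T1 CM, and 3033 to 6840 in co-cultures and 180 to 229 in mono-cultures in DMEM. The sort antigen gene Itgam was at 0 in co-cultures 3 and 4 and at 9.40 and 18.3 in co-cultures 1 and 2, against 1.97 and 2.47 in mono-cultures. Of 25 markers tested in 4T1 CM, 0 were called. Without overlap 0 were higher and 1, Csf1r, was lower, against 7.86% and 7.18% of all genes tested. In DMEM 20 of the 25 were called higher, against 0.855% of all genes tested. The macrophage share is built from the same markers, so its rise there is not a separate observation. The part of the macrophage share in the difference between media was not tested. The muscle genes Mybph, Myl1 and Mymk are not listed in the macrophage table.

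Glial transcripts split the co-cultures. Sox10, the transcription factor of Schwann-lineage cells, had 4.18, 14.9, 112 and 327 normalized reads in co-cultures 1 to 4, against 1.97 and 0 in mono-cultures. Ngfr, the low-affinity nerve growth factor receptor, named after its values were seen, had 3.13, 11.6, 96.5 and 449 in co-cultures and 0 and 2.47 in mono-cultures. Both were high in co-cultures 3 and 4 and near the mono-cultures in co-culture 1. Neither passed the limma test (adjusted p = 0.296 and 0.413), while DESeq2 called both (adjusted p = 0.0254 and 0.0469). In DMEM Sox10 was at 523 to 1129 in co-cultures and 469 to 593 in mono-cultures. Of the 11 glial markers tested, 3 were higher without overlap and 0 lower, against 7.86% and 7.18% of all genes tested. Cdh19 and Mal were at 0 in both mono-cultures and also in co-cultures 1 and 2. Of the 11, 8 had a log2 change above 0, while S100b, Mbp and Pmp22 were at -0.41, -0.06 and -0.24. Cdh19, Mal, S100b, Mbp and Pmp22 are named after their values were seen. The summed level of the list, most of it Pmp22, was 1109 to 2288 in co-cultures and 1435 and 1562 in mono-cultures.

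Other genes followed the same pairs of libraries. Dpt, a dermatopontin gene of fibroblasts, had 56.4, 61.4, 355 and 351 normalized reads in co-cultures and 23.7 and 33.8 in mono-cultures. Mcam, a surface protein of mural and Schwann-lineage cells, had 11.5, 20.8, 35.6 and 113 in co-cultures and 1.97 and 7.42 in mono-cultures. With only co-cultures 3 and 4 against both mono-cultures 77 genes were called higher and 16 lower, Sox10, Ngfr, Dpt and Mcam among the higher, and with only co-cultures 1 and 2 there were 0 higher and 3 lower. Of the 19 muscle genes, 16 separated from the mono-cultures with only co-cultures 1 and 2 and 15 with only 3 and 4. Over all genes tested, more genes also separated in such subsets than with all libraries, as given above. Of the muscle genes, 0 were called with the first pair and 7 with the other, against 3 and 93 of all genes tested. Myl1, Mymk and Actc1 were higher in co-cultures 3 and 4 than in 1 and 2. Whether the glial and the muscle transcripts came from the same cultures' share of other cells was not tested.

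**Figure D5:**
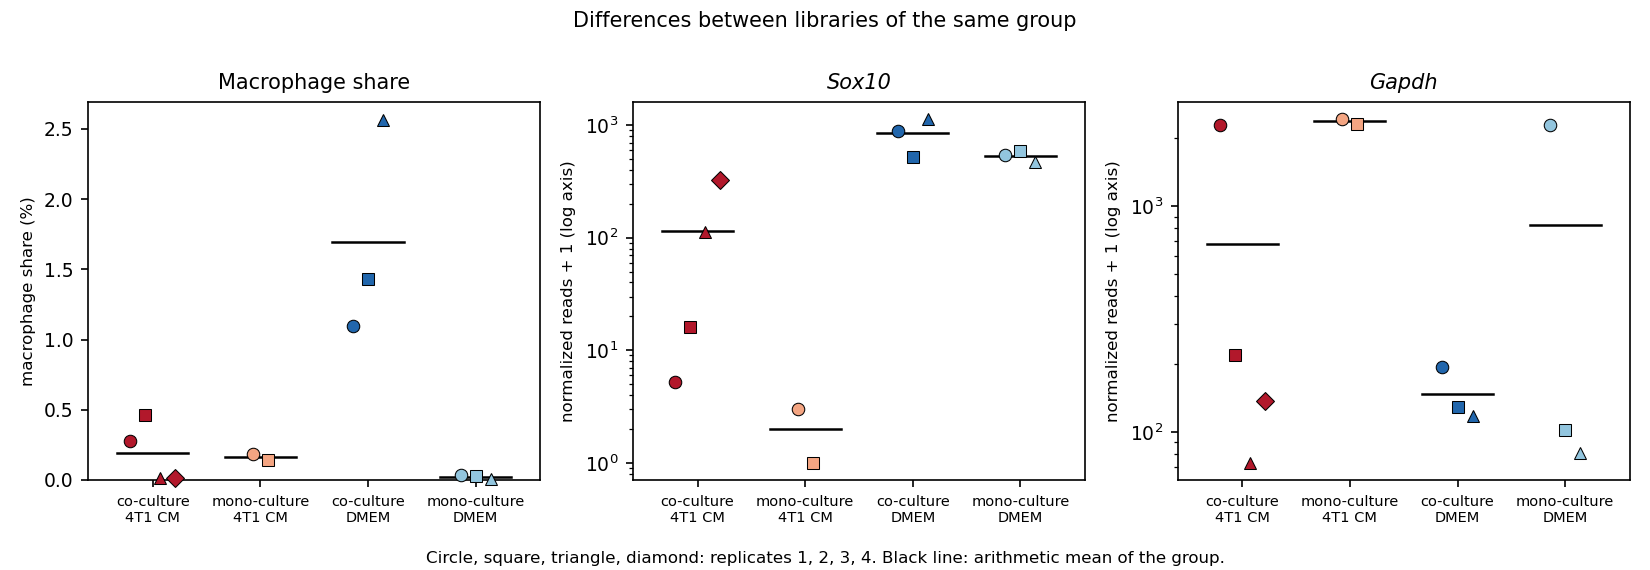
Macrophage share in percent (left), and normalized reads plus 1 (log axes) of Sox10 (middle) and Gapdh (right) in each fibroblast library, co-culture left of mono-culture in each medium, with 1 symbol per replicate and a line at the group mean. Co-cultures 3 and 4 in 4T1 CM are low in macrophage share and high in Sox10, and Gapdh falls into a high and a low set that cuts across the groups.

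Gapdh, the glycolytic enzyme often used as a reference gene, had 2284, 218, 72.1 and 137 normalized reads in co-cultures 1 to 4 and 2432 and 2324 in mono-cultures 1 and 2 in 4T1 CM. In DMEM it had 193, 128 and 117 in co-cultures and 2293, 102 and 80.1 in mono-cultures. The values fell into a set of 2284 to 2432 and a set of 72.1 to 218, which over both media did not follow the groups. In 4T1 CM, however, both mono-cultures and co-culture 1 were in the high set and the other co-cultures in the low set. There the split and the effect of co-culture can hardly be told apart, and the cause of the split was not tested. The log2 change of -3.16 ± 1.26 in 4T1 CM missed the threshold (limma adjusted p = 0.485).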

How the data were processed

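Reads of 3' end libraries from fibroblasts were deposited as a normalized signal per gene, and those of macrophages as raw counts of reads per gene. Listed without roles, per the submitters' processing notes, are HTSeq, STAR 2.4.2a, bcl2fastq and the build mm10. Each fibroblast signal value that the authors deposited, multiplied by 1 factor per library, gave a whole number of reads within 0.001 (100% of values), and every listed gene had at least 6 reads in 1 library.

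In R 4.3.3, log2 of the value plus a pseudocount of 1 entered limma 3.58.1 (two-sided, with a trended prior) where a gene reached 5 in 2 or more of the 12 libraries. All 12 fibroblast libraries entered 1 fit of 4 groups without covariates, so mono-culture (n = 2) borrowed its spread. Calls have a Benjamini-Hochberg adjusted p under 0.05. Recovered reads were also tested with edgeR 4.0.16 and DESeq2 1.42.0. P-values measure the spread between these libraries. The code was tested on simulated data.

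Macrophage levels as a share of reads, used for the macrophage share and partner-enriched genes, came from the deposited counts. The 3 macrophage columns headed as cultured alone in DMEM were matched to the day 0 samples.

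Named were the 10 genes each way with the smallest p and a mean of at least 20, the 4 members of each list with the smallest p, the 5 each way for the interaction, and ligands and receptors. Members, lists and rules were chosen with earlier results of these data known. Other pseudocounts, filters, normalizations, weights, a replicate block and left-out libraries were tried. Lymphocyte and mitochondrially encoded genes had 0 genes tested. Some genes that the naming rule selects are not reported here.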

Additional observations from a re-analysis of the deposited data

Results flagged for a closer look

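Among the 4 co-cultures in 4T1 CM, 2 of 63 values checked had a replicate far from the others, where chance flags about 1 in 20. Gapdh was at 2284 normalized reads in co-culture 1, against 72.1 to 218 in the other 3. Mybph was at 11.5 in co-culture 1, against 32.4 to 35.6 in the other 3, and without this library its log2 change was 5.13 (limma adjusted p = 0.00886).

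The co-culture effect differed between 4T1 CM and DMEM by the interaction test in limma for 10 named genes. The log2 difference was above 0 for Mybph (5.12), Syngr1 (3.51), Hmox1 (1.65) and Tmem150a (1.35). It was below 0 for Slc15a3 (-4.23), Csf1r (-3.81), Mmp9 (-3.77), C3 (-3.68), Gjb5 (-2.59) and Nid2 (-2.23). Of 20 alternatives, the call was lost in 0 for Mmp9, 1 for Csf1r, 5 for C3 and Slc15a3, and 7 for Gjb5 and Nid2. It was lost in 10 for Hmox1, Tmem150a and Mybph, and in 15 for Syngr1.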

How the results depend on the processing

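Of 793 values of single genes recomputed under other settings, 0 changed direction. These were genes named in the text, chosen mostly by small p in the same libraries. A count of 0 was therefore likely beforehand and says little about how firm the changes are. The 3 genes higher in co-culture in 4T1 CM became 5 with a pseudocount of 0.5, 1 with a minimum of 20, and 0 with a pseudocount of 5, quantile normalization, array quality weights, only the 6 libraries compared, or the edgeR test. DESeq2 called 14 higher and 13 lower. Leaving out 1 library gave 0 to 171 higher and 0 to 126 lower. With only co-cultures 1 and 2, chosen after seeing the data, 0 were higher and 3 lower, and with only 3 and 4 there were 77 higher and 16 lower. Collagen genes lower without overlap numbered 17 of 31 with co-cultures 1 and 2 only, against 11 with all, while over all genes tested the same counts were 2245 and 891.

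For the difference between media, 4 higher and 14 lower became 4 and 23 with a pseudocount of 5, 0 and 11 with edgeR and 39 and 99 with DESeq2, and 0 to 116 higher and 2 to 81 lower without 1 library. The highest counts came without mono-culture 2 in 4T1 CM; without co-culture 2 in 4T1 CM they were 12 and 61, and without mono-culture 1, any co-culture in DMEM, or mono-culture 1 or 3 in DMEM they were 0 and 2 to 4. The macrophage share of the mono-cultures averaged 0.162% in 4T1 CM and 0.023% in DMEM; as a ratio of summed levels it was 0.254% and 0.0692%, and with mono-cultured macrophages as 100% it was 0.106% and 0.0134%. The cause of these shifts was not tested.

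Replicate numbers are shared between groups, but same-numbered libraries did not deviate together (r = -0.241 to 0.194 over 15 pairs, 2 over 0.1). With the replicate number as a block, 0 genes were called in either direction in 4T1 CM, and 0 higher and 1 lower for the difference between media. Only 2 mono-cultures in 4T1 CM were measured, so the spread of that group came from the others, and a library left alone in its group is assumed to vary like them. Low depth in mono-culture 1 limits values near 0.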

Other observations

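Genes of DNA replication were among those lower by p in co-culture in 4T1 CM. Pcna, the replication clamp, had 153, 218, 178 and 197 normalized reads in co-cultures, against 255 and 290 in mono-cultures, and Mcm6, a helicase subunit, had 137, 184, 143 and 157 in co-cultures and 247 and 311 in mono-cultures. Neither passed the limma test (adjusted p = 0.428 and 0.436). Of 39 cell-cycle genes tested 2 were lower without overlap and 0 higher, below the 7.18% of all genes tested that were lower, and the median log2 change was -0.20 in 4T1 CM and 0.50 in DMEM. Mki67, a marker of cycling cells, overlapped at 62.6, 83.9, 199 and 115 in co-cultures and 349 and 144 in mono-cultures.

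Genes of cholesterol and fatty acid synthesis had a median log2 change of 0.14 over 25 tested, 0 of them called, 1 higher and 1 lower without overlap, against 7.86% and 7.18% of all genes tested. Egfr, the epidermal growth factor receptor, had 470, 341, 301 and 357 normalized reads in co-cultures and 754 and 482 in mono-cultures (limma adjusted p = 0.397). Pdia4, a chaperone of the endoplasmic reticulum, had 198, 205, 233 and 234 in co-cultures and 748 and 277 in mono-cultures. Its log2 change of -1.07 ± 0.29 (limma adjusted p = 0.399, DESeq2 adjusted p = 0.0405) was -0.35 without mono-culture 1 and -1.78 without mono-culture 2. Cldn3, an epithelial tight junction gene, had 10.4, 15.8, 3.48 and 14.99 in co-cultures and 0 and 0 in mono-cultures, at least 6.401-fold above the floor of 3 reads over both. It missed the limma threshold (adjusted p = 0.260). Of 5 epithelial markers tested, 1, Cldn3, was higher without overlap and 0 lower, against 7.86% and 7.18% of all genes tested. The others overlapped, and Krt14 and Krt18 were at 0 in co-cultures 3 and 4.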
